A study of Homo sapiens with 2 samples.

Results

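Mitochondrial ribosomal proteins are made from nuclear genes, imported into the organelle and assembled there, with 2 mitochondrially encoded ribosomal RNAs, into a ribosome that translates the mRNAs of the mitochondrial genome. The genes whose symbol begins with MRPL, followed by a number, were taken as the large subunit and those that begin with MRPS as the small subunit. This naming rule found 78 entries of the 18781 in the deposited gene table, 48 for the large subunit and 30 for the small subunit, under 76 symbols. MRPL30 and MRPS17 each have a second identifier without a description, which carried little or no signal.

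The measurements come from T47D cells, a line of luminal breast cancer with the genotype given as WT, cultured in DMEM with serum. Lysates were incubated with protein A beads that carried either an antibody against IMP1, an RNA-binding protein that guides the localization and stability of many transcripts, or normal IgG as the control. RNA that stayed on the washed beads was sequenced, with 1 library per condition, so every difference described here is between 2 libraries, has no replicate error and was not tested. Values are FPKM, fragments per length of transcript and per size of the library, and since read counts were not used here the depth of each library is unknown. No library of the input lysate was used here, so more RNA on the beads cannot be told apart from more RNA in the lysate.

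The large subunit of this ribosome forms peptide bonds and holds the tunnel through which the new protein leaves, and the small subunit binds the mRNA and reads its codons. Many of its proteins have a counterpart in bacterial ribosomes, while others occur only in mitochondria. Breast cancer cells, like other dividing cells, express these genes broadly at moderate levels, because the products of mitochondrial translation are subunits of the respiratory chain.

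Every symbol of the set was above 0 with the IMP1 antibody. The 78 entries had a median of 11.5 FPKM there, with the middle 50% between 8.33 and 17.02 FPKM and a highest value of 37.8 FPKM for MRPS24. With IgG their median was 13.5 FPKM, but the values were more spread out, with the middle 50% between 4.88 and 27.4 FPKM and a highest value of 77.8 FPKM for MRPL42. On the log2(FPKM + 0.1) scale the standard deviation across the entries was 1.37 with the IMP1 antibody and 2.63 with IgG. The levels in the 2 libraries went together only loosely across the entries, with a Spearman correlation of 0.46 and a Pearson correlation of 0.35 over 78 entries that share the same 2 libraries. The summed FPKM of the set was 1042 with the IMP1 antibody and 1468 with IgG.

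**Figure D1:**
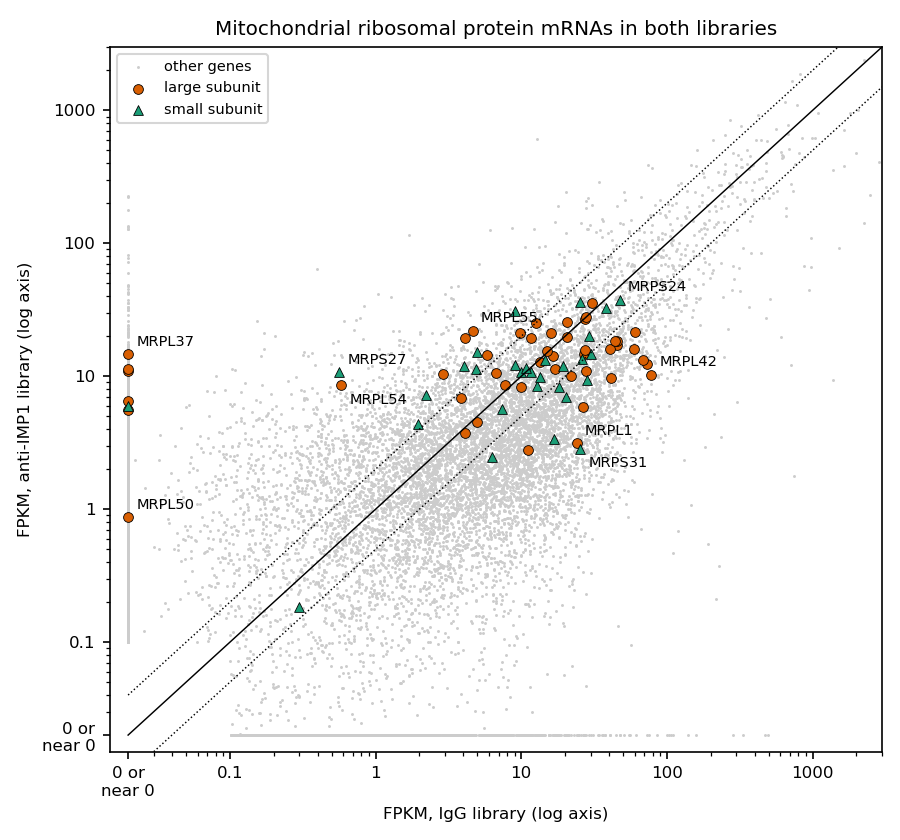
FPKM of each gene in the IgG library (horizontal, log axis) and in the anti-IMP1 library (vertical, log axis), with values at or near 0 drawn at the edge, the large subunit as circles, the small subunit as triangles and other genes as grey points. The solid line marks equal values and the dotted lines 2-fold differences. The members lie in a narrow band of anti-IMP1 levels and over a wide range of IgG levels, from MRPL37, listed at 0, to MRPL42 at 77.8 FPKM.

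For each gene 0.1 was added to both values, and the log2 of IMP1 over IgG was taken, which makes differences between low values look smaller than they are. The set had a median log2 ratio of -0.11, with the middle 50% between -1.12 and 1.08, against a median of 0.40 over all genes of the table. Of the 78 entries, 20 were at least 2-fold higher with the IMP1 antibody, or 25.6%, against 39.9% of all genes. Another 22 were at least 2-fold lower, or 28.2%, against 29.9% of all genes, and 36 lay between. Among the 67 entries that reached 1 FPKM in both libraries the median was -0.22, against -0.78 over all genes above the same level. Of these, 11 were at least 2-fold higher (16.4%, against a background of 11.5%) and 22 at least 2-fold lower (32.8%, against a background of 44.0%).

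The sign of the median depends on how the 2 libraries are put on one scale. It was 0.65 after the IMP1 values were rescaled so that the median gene that reached 1 FPKM in both libraries had a ratio of 1, a log2 shift of 0.79. It was 1.73 after rescaling to the same sum of FPKM over all genes, a shift of 1.88. As deposited, 47.6% of the entries past 2-fold were higher, and this share became 74.4% and 94.5% under these rescalings. Over all genes of the table the share was 57.2% as deposited and 69.9% and 83.1% after rescaling, so that the members' share went from below to above it. The median of the members stayed below that of all genes, which was 0.40 as deposited and 0.96 and 1.87 after rescaling. Among genes that reached 1 FPKM in both libraries it stayed above, at 0.58 against 0 and 1.66 against 1.06 after rescaling. At moderate levels, a gene that was lower by less than such a shift on the deposited scale has a ratio above 0 after that rescaling. The order of the members among themselves does not depend on the scale, apart from those near 0.

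Genes of like abundance on the IMP1 beads were then set side by side. Between 5 and 40 FPKM with the IMP1 antibody there were 67 entries of the set and 3199 protein-coding genes, the members included. Their median log2 ratios were -0.05 and -0.11. The share at least 2-fold higher was 26.9% for the members and 28.1% for the protein-coding genes, and the share at least 2-fold lower was 25.4% and 28.9%. At matched IMP1 levels the ratios of the members and of protein-coding genes thus lay close together. The match used the IMP1 value alone, which is also part of the ratio, so members below 5 FPKM there were left out. Among them were MRPS31 and MRPL1, at least 2-fold lower, and MRPS28 and MRPL50, at least 2-fold higher.

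The large and the small subunit differed little. The large subunit had a median of 13.0 FPKM with the IMP1 antibody and 15.5 FPKM with IgG, and the small subunit 10.8 and 12.2 FPKM. The median log2 ratio was -0.04 over the 48 large subunit entries and -0.27 over the 30 small subunit entries, a difference of 0.23. The middle 50% of the ratios ran from -1.32 to 1.01 in the large subunit and from -0.88 to 0.97 in the small subunit, so that the difference was small beside the spread within each. In the large subunit 12 entries were at least 2-fold higher and 15 at least 2-fold lower, and in the small subunit 8 were higher and 7 lower. Summed over its members, the large subunit had 660.8 FPKM with the IMP1 antibody and 1019 FPKM with IgG, and the small subunit had 381.3 and 448.9 FPKM.

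The letter in a symbol does not always give the place of the protein. MRPS30 and MRPS18A sit in the large subunit of the assembled ribosome, and MRPS36 is now known as a component of the alpha-ketoglutarate dehydrogenase complex. MRPS30 had 12.1 FPKM with the IMP1 antibody and 9.05 FPKM with IgG. MRPS36 had 5.68 and 7.38 FPKM (log2 ratio -0.37.) With these genes moved and 7 proteins without an MRP symbol added, the medians were 0.02 for the large and -0.22 for the small subunit, a difference of 0.24.

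At the top of the large subunit stood a group of mRNAs that the table gives at 0 in the IgG library. MRPL37 had 14.7 FPKM, MRPL41 11.3 FPKM, MRPL53 10.9 FPKM, MRPL40 6.53 FPKM, MRPL46 5.54 FPKM and MRPL50 0.871 FPKM with the IMP1 antibody, and each was listed at 0 with IgG. All 6 encode proteins that occur only in mitochondrial ribosomes. Of the 17 large subunit genes of that kind, 6 were listed at 0 with IgG, while of the 31 entries with a bacterial counterpart the second MRPL30 identifier was the only one, and it was also at 0 with the IMP1 antibody. In the small subunit MRPS12, with 5.95 FPKM in the IMP1 library, was the only one listed at 0 with IgG, and it has a bacterial counterpart. Of the small subunit entries, 1 of 19 with a bacterial counterpart and 0 of 10 that occur only in mitochondria were thus at 0 with IgG. The 6 of 17 in the large subunit are 35.3%, against 41.7% of all genes above 0 with the IMP1 antibody.

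A value of 0 in such a table can be a failed estimate as well as an absence of reads, and no fold is given for these genes. Of the 77 entries above 0 with the IMP1 antibody, 7 were listed at 0 with IgG, or 9.09%, against the same 41.7% of all genes. Between 5 and 15 FPKM with the IMP1 antibody 6 of 42 members were listed at 0 with IgG, or 14.3%, and so were 10.7% of 2356 protein-coding genes. Among genes of mitochondrial transcription, POLRMT, the mitochondrial RNA polymerase, at 3.17 FPKM in the IMP1 library, was listed at 0 with IgG. TFAM and TFB2M were above 0 there. The cause of the values of 0 was not tested.

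**Figure D2:**
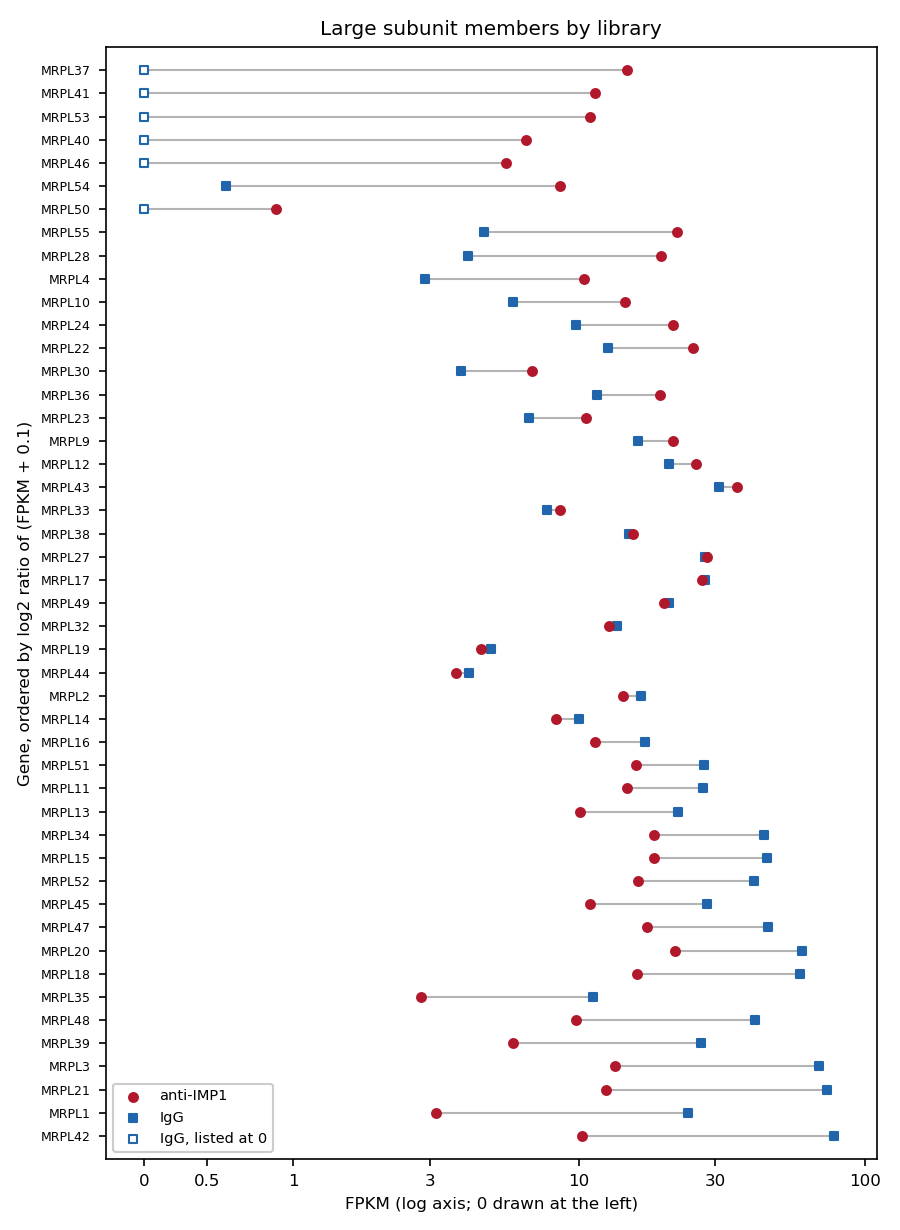
FPKM (log axis, with 0 drawn at the left) of the large subunit genes in the anti-IMP1 library (circles) and the IgG library (squares, open where listed at 0), ordered by log2 ratio, with the main identifier of MRPL30. The IgG values run from 0 at the top to 77.8 FPKM for MRPL42 at the bottom, and the anti-IMP1 values of most genes stay between 5 and 30 FPKM.

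Of the large subunit genes that reached 1 FPKM in each library, 5 had at least 2-fold higher values with the IMP1 antibody. MRPL55 had 21.99 FPKM with the IMP1 antibody and 4.64 FPKM with IgG (log2 ratio 2.22.) MRPL28 had 19.4 and 4.09 FPKM, again with a log2 ratio of 2.22. Both have bacterial counterparts, as do the 3 that follow. MRPL4 had 10.4 and 2.90 FPKM, MRPL10 14.5 and 5.86 FPKM, and MRPL24 21.3 and 9.79 FPKM. The next in order, MRPL22, had 24.98 and 12.7 FPKM and lay just inside 2-fold. MRPL54, a protein without a bacterial counterpart, stood higher still at 8.57 FPKM against 0.582 FPKM with IgG (log2 ratio 3.67) that rests on an IgG value below 1 FPKM.

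At the other end MRPL42 had 10.3 FPKM with the IMP1 antibody and 77.8 FPKM with IgG (log2 ratio -2.91.) MRPL1, which forms a mobile stalk beside the exit site for tRNA, had 3.14 and 24.1 FPKM (log2 ratio -2.90.) MRPL21 had 12.4 and 73.5 FPKM (log2 ratio -2.56.) These 3 genes were more than 5-fold lower with the IMP1 antibody on the deposited scale, and so was MRPL3. MRPL3, whose bacterial counterpart reaches towards the peptide bond forming centre, had 13.3 and 69.1 FPKM. MRPL39 had 5.87 and 26.6 FPKM, and MRPL48 had 9.79 and 41.2 FPKM. The ratios of all of these genes, from MRPL42 to MRPL48, stayed below 0 under each rescaling tried. The set thus held mRNAs with opposite ratios at the same level on the IMP1 beads, such as MRPL42 at 10.3 FPKM and MRPL4 at 10.4 FPKM.

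The small subunit held 1 gene listed at 0 with IgG and ratios in both directions. MRPS27, a protein with pentatricopeptide repeats, had 10.8 FPKM with the IMP1 antibody and 0.564 FPKM with IgG (log2 ratio 4.03.) MRPS34 had 31.1 and 9.08 FPKM (log2 ratio 1.76), and MRPS14 had 7.20 and 2.24 FPKM (log2 ratio 1.64.) MRPS34 was the only one of these that was also among the 4 highest small subunit mRNAs in the IMP1 library. MRPS2 had 15.2 and 5.00 FPKM, MRPS18A 11.9 and 4.03 FPKM, MRPS25 11.3 and 4.87 FPKM, and MRPS28 4.38 and 1.96 FPKM.

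MRPS31 was the lowest of all members, with 2.86 FPKM with the IMP1 antibody and 25.4 FPKM with IgG (log2 ratio -3.11.) MRPS5 had 3.38 and 16.8 FPKM (log2 ratio -2.28.) A pseudogene named for MRPS31, MRPS31P5, had 0.352 and 4.49 FPKM, and reads that both copies could yield cannot be assigned with certainty. MRPS33 had 9.42 and 28.4 FPKM, and MRPS21 had 7.01 and 20.2 FPKM. MRPS9 had 2.46 and 6.27 FPKM, MRPS10 8.38 and 18.3 FPKM, and MRPS7 14.8 and 29.9 FPKM. Of these 7 genes, MRPS31 and MRPS5 still had ratios below 0 after rescaling to the same sum, and those of the others were then above 0.

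**Figure D3:**
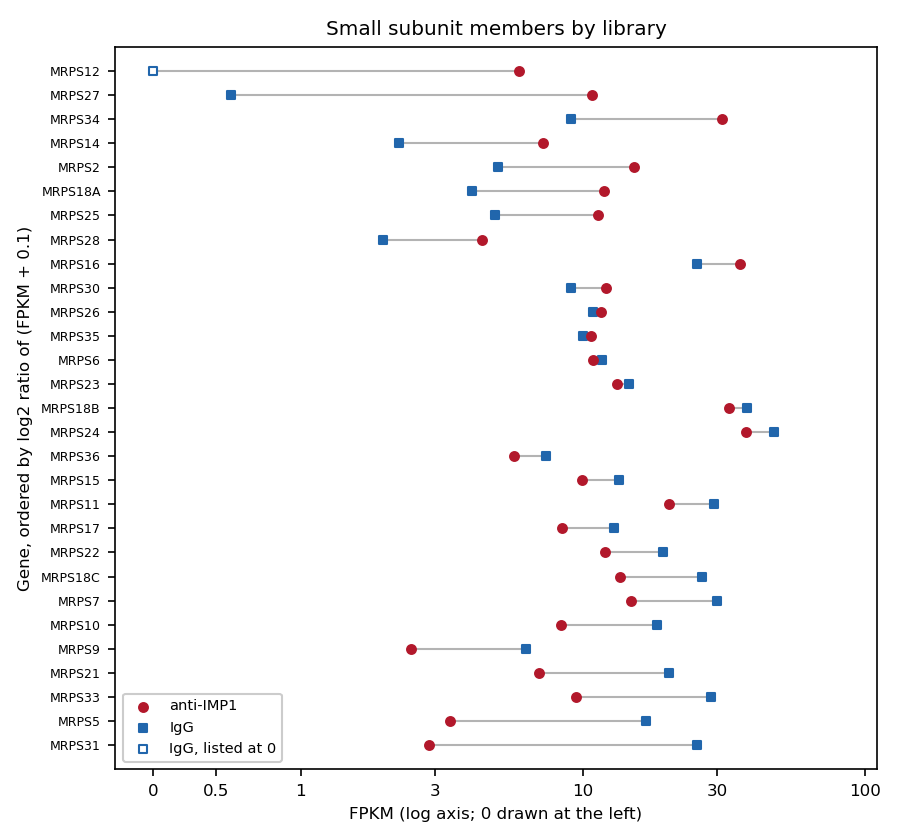
FPKM (log axis, with 0 drawn at the left) of the small subunit genes in the anti-IMP1 library (circles) and the IgG library (squares, open where listed at 0), ordered by log2 ratio, with the main identifier of MRPS17. MRPS12 at the top is listed at 0 with IgG, and MRPS31 at the bottom has 2.86 FPKM with the IMP1 antibody and 25.4 FPKM with IgG.

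The 4 most abundant mRNAs of the set in the IMP1 library differed little between the beads. MRPS24, a counterpart of a bacterial protein at the mRNA entry, had 37.8 FPKM with the IMP1 antibody and 47.5 FPKM with IgG. MRPS16 had 36.2 and 25.3 FPKM, MRPL43 35.8 and 30.8 FPKM, and MRPS18B 32.8 and 38.2 FPKM. All 4 lay within 2-fold on the deposited scale. Further down, MRPL27, MRPL17 and MRPL38 had almost equal values, with 28.1 and 27.6 FPKM for MRPL27, 26.9 and 27.5 FPKM for MRPL17, and 15.4 and 14.9 FPKM for MRPL38.

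On the deposited scale, proteins that meet at one site of the ribosome did not have mRNAs of one direction. At the stalk bases of the large subunit, MRPL10 was at least 2-fold higher and MRPL1 at least 2-fold lower. MRPL11 had 14.7 FPKM with the IMP1 antibody and 27.2 FPKM with IgG, and MRPL12, which forms the flexible stalk with MRPL10 and also binds the mitochondrial RNA polymerase, had 25.7 and 20.7 FPKM. In the central protuberance, which faces the small subunit, MRPL55 was higher and MRPL40 and MRPL46 were listed at 0 with IgG, while MRPL18, at 16.0 and 59.4 FPKM, and MRPL48 were lower. MRPL27 and MRPL38 of the same site were level.

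Around the exit tunnel MRPL24 was at least 2-fold higher, and MRPL22, MRPL23 and MRPL17 lay between. MRPL23 had 10.6 FPKM with the IMP1 antibody and 6.69 FPKM with IgG. MRPL45, which holds the ribosome to the inner membrane, had 10.9 and 27.9 FPKM, and MRPL47 had 17.3 and 45.7 FPKM, so both were at least 2-fold lower, though their ratios were above 0 after rescaling to the same sum. At the mRNA entry and the decoding site MRPS2 was higher, MRPS5 lower and MRPS12 listed at 0 with IgG. MRPS35 was level, with 10.7 and 10.0 FPKM. On the deposited scale each of the 4 sites thus held at least 1 mRNA past 2-fold in each direction. On that scale 39.9% of all genes were at least 2-fold higher and 29.9% at least 2-fold lower. After rescaling to the median ratio, MRPL45 and MRPL47 lay within 2-fold, with log2 ratios of -0.56 and -0.60.

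The 3 paralogs MRPS18A, MRPS18B and MRPS18C go back to one bacterial protein and take different places in the ribosome. MRPS18A was 2.95-fold higher with the IMP1 antibody, MRPS18B had nearly equal values, and MRPS18C had 13.6 FPKM with the IMP1 antibody and 26.3 FPKM with IgG (log2 ratio -0.95.) The family therefore spread over the range from MRPS18A above to MRPS18C below, and MRPS18B was the most abundant of the 3 in either library.

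Genes that start from the same stretch of DNA could also part. The deposited table gives MRPS11 and MRPL46 one common region, chr15:89002707-89089906 in hg19. In RefSeq on GRCh38.p14 they point away from each other with 320 bases between their start sites. MRPS11 had 20.2 FPKM with the IMP1 antibody and 29.3 FPKM with IgG, whereas MRPL46 had 5.54 FPKM and was listed at 0. The deposited region is a span that holds a cluster of neighbouring or overlapping genes and not the bounds of 1 gene, and 41 of the 78 entries share theirs with another gene. MRPL37, for example, shares chr1:54598747-54879152 with SSBP3, which had 7.21 FPKM with the IMP1 antibody and 17.96 FPKM with IgG. Whether reads of neighbours were divided between such genes was not tested. Among the 37 entries with a region of their own, 8 were at least 2-fold higher and 16 at least 2-fold lower. Of all genes of the table, in shared regions or not, 39.9% were higher and 29.9% lower. The shares over all genes with a region of their own were not computed.

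Each of 3 sets of letters, which the naming rule did not use, was found near the start of a minority of these genes. RefSeq windows from 250 bases before to 50 bases after the start site on GRCh38.p14 were found for 67 of the 76 symbols. The letters AAGATGGCG on either strand, the core of the element that the factor YY1 recognizes, occur in 13 of these 67 genes, or 19.4%, and in 2.14% of all 27305 genes with such a window. The letters CCGGAAGT, the core of an ETS factor element, occur in 12 of them, or 17.9%, against 4.95% of all genes, and the letters GCGCATGCG of the NRF1 element in 3, or 4.48%, against 2.34%. In 10 of the 13 carriers the first set of letters lies within the transcribed strand, beginning between base 7 and base 36 of the transcript. In the 2 windows with both the YY1 and the ETS letters, they do not overlap.

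Stretches of 30 bases around the YY1 letters are shown for 4 carriers, to set these letters beside ratios from one end of the range to the other. The capitals mark the searched letters, each stretch is written 5′ to 3′ on the strand of its gene, and all come from RefSeq on GRCh38.p14.
MRPL42: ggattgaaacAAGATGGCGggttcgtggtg
MRPL38: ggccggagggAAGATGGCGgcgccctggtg
MRPS18A: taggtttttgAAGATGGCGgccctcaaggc
MRPL46: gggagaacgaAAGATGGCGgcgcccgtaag
The stretches lie at chr12:93467512-93467541 on the plus strand for MRPL42, and on the minus strand at chr17:75904859-75904888 for MRPL38, chr6:43687763-43687792 for MRPS18A and chr15:88467361-88467390 for MRPL46.

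Carriers of the same letters stood at opposite ends. MRPL42 was the lowest large subunit mRNA, MRPL38 was level, MRPS18A was at least 2-fold higher and MRPL46 was listed at 0 with IgG. Over the 13 carriers the median log2 ratio was 0.04, with 3 at least 2-fold higher and 3 at least 2-fold lower. Over the 54 other members with a window it was -0.11, with 15 higher and 15 lower. For the ETS letters the 12 carriers had a median of -0.73, with 2 higher and 5 lower. The 55 others had a median of -0.03, with 16 higher and 13 lower. Of all genes of the table, 39.9% were higher and 29.9% lower. The difference between carriers and others was not tested.

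The length of the gene went with the ratio. RefSeq gives the span of the gene, introns included, for 75 of the 78 entries. Over these entries the Spearman correlation of span with log2 ratio was -0.38, and over the 66 of them that reached 1 FPKM in both libraries it was -0.36. The span went with the level in the IMP1 library, with a correlation of -0.47, and hardly with the level in the IgG library, where it was 0.08. These are descriptions over genes that share the same 2 libraries.

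Of the 21 members whose gene spans at most 5 kb, 9 were at least 2-fold higher with the IMP1 antibody and 1, MRPS7, was at least 2-fold lower, or 42.9% and 4.76%. Of 1402 protein-coding genes in the same range 42.7% were higher and 23.1% lower. When 1 FPKM was asked of both libraries, 4 of 16 such members were higher and 1 lower. Among 596 protein-coding genes of that range and level, 19.6% were higher and 27.2% lower. Of the 25 members over 15 kb, 5 were higher and 12 lower, or 20.0% and 48.0%, against 34.7% and 34.7% of 9633 protein-coding genes. With 1 FPKM in both libraries, 13.0% of 23 such members were higher and 52.2% lower. Of 4460 such protein-coding genes, 9.89% were higher and 49.1% lower, so the shares then lay closer together. MRPS34 spans 1240 bases and MRPL55 2615 bases, and both were higher. MRPL1 spans 89956 bases, MRPL48 77260 bases and MRPL42 48701 bases, and all 3 were lower. MRPS27 and MRPS28, which span 100838 and 111543 bases, were higher and went against this order. Over 6393 protein-coding genes that reached 1 FPKM in both libraries the correlation of span with log2 ratio was -0.21, and over all 13881 protein-coding genes it was -0.11, so both were of the same sign as in the set and nearer to 0. The part of the gene's length, or of the length of its mRNA, in the ratio was not tested.

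**Figure D4:**
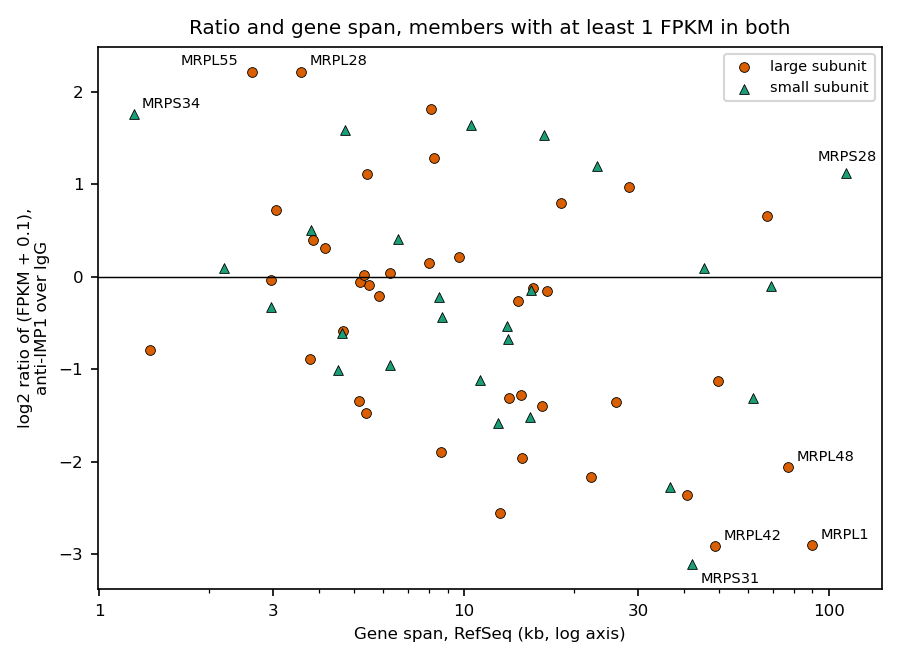
Log2 ratio of FPKM + 0.1, anti-IMP1 over IgG (vertical), against the RefSeq span of the gene in kilobases (horizontal, log axis) for the 66 members that reached 1 FPKM in both libraries and a known span, the large subunit as circles and the small subunit as triangles. MRPS31, MRPL42 and MRPL1, which have the lowest ratios, span over 40 kb. MRPL21, the next lowest, spans 12555 bases, and MRPS28 at 111543 bases lies above 0.

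The remaining members filled the middle of the range. In the large subunit MRPL20, MRPL15, MRPL34, MRPL52, MRPL13 and MRPL35 were also at least 2-fold lower with the IMP1 antibody, with log2 ratios from -1.95 for MRPL35 to -1.12 for MRPL13, of which that of MRPL35 alone stayed below 0 under the same sum. MRPL20 was among the most abundant of them with IgG, at 60.2 FPKM against 21.6 FPKM with the IMP1 antibody. The others lay within 2-fold, from MRPL51 at 15.8 FPKM with the IMP1 antibody and 27.5 FPKM with IgG to MRPL36 at 19.2 and 11.6 FPKM. MRPL51 and MRPL36 are encoded by short genes of 1377 and 3050 bases. The unnamed members of the small subunit ran from MRPS22, at 12.02 and 19.2 FPKM, to MRPS26, at 11.6 and 10.9 FPKM. The main identifier of MRPS17 had 8.41 FPKM with the IMP1 antibody and 12.8 FPKM with IgG, and its second identifier 0.184 and 0.297 FPKM.

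The mitoribosomal proteins whose symbols do not begin with MRPL or MRPS had a similar mixture. PTCD3, a pentatricopeptide protein of the small subunit, ICT1, a peptidyl-tRNA hydrolase built into the large subunit, and MRP63 had 3.35, 15.4 and 5.14 FPKM with the IMP1 antibody, and each was listed at 0 with IgG. DAP3, a GTP-binding protein of the small subunit, had 19.1 FPKM with the IMP1 antibody and 71.1 FPKM with IgG (log2 ratio -1.89.) CHCHD1 had 11.5 and 6.41 FPKM, AURKAIP1 17.7 and 13.2 FPKM, and GADD45GIP1 19.9 and 14.9 FPKM. Of the 7 genes, 3 were thus at least 2-fold higher, all of them listed at 0 with IgG, and 1 was at least 2-fold lower. These are 42.9% and 14.3%, against 39.9% and 29.9% of all genes.

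Genes that help to build and run the mitochondrial ribosome were counted in the same way. Of 25 assembly factors, 11 were at least 2-fold higher and 5 at least 2-fold lower, and 10 of the 11 were listed at 0 with IgG. These counts are 44.0% higher and 20.0% lower, against 39.9% and 29.9% of all genes. Among those that reached 1 FPKM in both libraries, MALSU1 had the largest log2 ratio, 0.64, and METTL15, which methylates the small subunit RNA, the smallest, -2.42, with 3.28 FPKM with the IMP1 antibody and 5.50 times that with IgG. Of 16 translation factors, 8 were higher and 5 lower, and 5 of the 8 were listed at 0 with IgG. TSFM, the exchange factor of the mitochondrial elongation factor Tu, had 12.4 and 4.32 FPKM (log2 ratio 1.49.) GFM1, the mitochondrial elongation factor G, had 3.58 and 20.3 FPKM (log2 ratio -2.47.)

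Of 6 genes of mitochondrial transcription, 3 were at least 2-fold higher, and all 3 were listed at 0 with IgG. TFAM, which packages mitochondrial DNA and acts in its transcription, had 8.94 and 12.8 FPKM, and TFB2M had 1.72 and 2.47 FPKM. The RNA that the proteins join was itself lower with the IMP1 antibody on the deposited scale. MT-RNR1, the ribosomal RNA of the small subunit, had 97004 FPKM with the IMP1 antibody and 285640 FPKM with IgG, and MT-RNR2 of the large subunit had 36324 and 395449 FPKM. Of the 13 mitochondrially encoded mRNAs, 8 were at least 2-fold lower and 0 at least 2-fold higher. These are 61.5% and 0%, against 29.9% and 39.9% of all genes. Their median log2 ratio was -1.10, which the same sum turned above 0.

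The cytosolic ribosomal proteins offer the nearest comparison, since they too form 1 large particle. Their 79 mRNAs were far more abundant, with a median of 288.5 FPKM with the IMP1 antibody and 315.5 FPKM with IgG, and none was listed at 0. Their median log2 ratio, -0.02, was close to that of the mitochondrial set, but the middle 50% lay between -0.49 and 0.43, a narrower range than from -1.12 to 1.08. Only 8 of them were at least 2-fold higher and 4 at least 2-fold lower, against 20 and 22 of the 78 mitochondrial entries. The cytosolic counts are 10.1% higher and 5.06% lower, against 39.9% and 29.9% of all genes. At the ends stood RPS16, with a log2 ratio of 3.07, and RPL12, with -1.94. The difference in width goes with the difference in level, and how far level sets it was not tested.

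**Figure D5:**
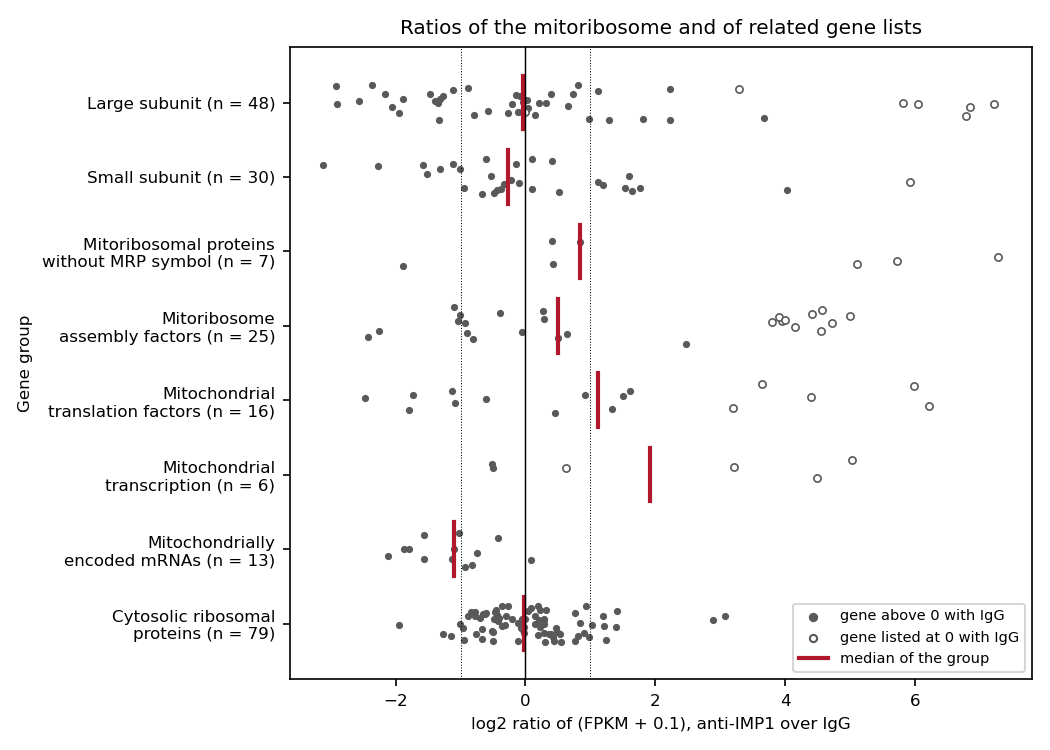
Log2 ratio of FPKM + 0.1, anti-IMP1 over IgG (horizontal), for each gene of the subunits and of related gene groups (vertical), with open points for genes listed at 0 with IgG, a thick bar at the median of each group and dotted lines at 2-fold. The cytosolic ribosomal proteins lie mostly within 2-fold, while both mitochondrial subunits spread from about -3 to over 4.

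Markers of other cells moved between the libraries as well. Of 11 markers of luminal breast epithelium, the labelled origin of the cells, 10 reached 1 FPKM in each library, 6 were at least 2-fold higher and 0 at least 2-fold lower with the IMP1 antibody. TFF1 was the exception, at 0.869 FPKM with the IMP1 antibody and listed at 0 with IgG. Their summed level was 1225 FPKM with the IMP1 antibody and 563.3 FPKM with IgG. Of 14 mesenchymal markers, 13 were at least 2-fold lower with the IMP1 antibody, with a summed level of 2.76 FPKM there and 249.1 FPKM with IgG, and 7 were listed at 0 in the IMP1 library, among them DCN, LUM and ZEB2. Of the luminal markers 54.5% were thus higher and 0% lower, and of the mesenchymal markers 0% were higher and 92.9% lower. Of all genes, 39.9% were higher and 29.9% lower. The part of RNA from other cells in the IgG values of the mitochondrial ribosomal proteins was not tested.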

How the data were processed

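RNA that coprecipitated with anti-IMP1 antibody or IgG from T47D cells was sequenced by a company, with 1 library per group. For each gene the authors deposited an FPKM value in either library, and per the submitters' processing notes the genome was hg19. The aligner, the FPKM software and the annotation are not given in the sources used here. Fold changes, p-values and q-values of the authors' own comparison, and the gene lists made from it, were not used. Values of 1e-05 and below were set to 0, and 1 was added to each start position. For 18781 genes the log2 ratio was taken after 0.1 was added to each value, and those past 2-fold were counted without a test. The counting was tested on simulated data.

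The members and lists were chosen with earlier results of these data known. Named members were the 6 largest and 6 smallest ratios of each subunit where both values reached 1 FPKM, the 4 highest per library, those listed at 0, the MRPS18 paralogs, MRPS30, MRPS36 and the members of the sites. MRPL54 and MRPS27 were added after their values were seen. Gene spans and windows at start sites came from RefSeq, and 16509 genes were matched to a RefSeq class by current symbol. Alternatives were other pseudocounts, filters, rescalings, a 4-fold threshold and another assignment of subunits. Those without second identifiers and without shared regions were chosen after seeing the data. Python 3.11.15, numpy 2.4.6, pandas 2.3.3 and matplotlib 3.10.9 were used.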

Additional observations from a re-analysis of the deposited data

How the results depend on the processing

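No paired analysis was possible because each condition has 1 library, and leaving out a replicate was not possible for the same reason. The number of members at least 2-fold higher, 20, was 11 where both values reached 1 FPKM, 11 at a threshold of 4-fold and 8 without entries in a shared region, and the number lower, 22, was 8 at 4-fold. Rescaling the IMP1 values to the median ratio left 10 lower, with medians of 0.65 for all members, 0.72 for the large and 0.52 for the small subunit. Rescaling to the same sum gave 52 higher and 3 lower, with medians of 1.73, 1.80 and 1.60. The same sum without mitochondrially encoded genes gave 47 higher and 4 lower, with medians of 1.37, 1.44 and 1.24. Without entries in a shared region the median of all members was -0.43, and the cause was not tested. The large subunit median stayed above that of the small subunit by 0.13 to 0.24 under every alternative for which both medians were computed. Counts where both values reached 1 FPKM had the other order. Of the large subunit 12.5% were higher and 37.5% lower, and of the small subunit 22.2% and 25.9%. The shares of all genes at that level were 11.5% and 44.0%. The medians of the subunits were not computed without second identifiers or without entries in a shared region.

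Of the 45 named members with a ratio, 15 changed sign after rescaling to the same sum, 13 after rescaling without mitochondrially encoded genes and 5 after rescaling to the median ratio. Of the 28 that were past 2-fold as deposited, 8 changed sign under the same sum, to 0.74 for MRPS10, 0.28 for MRPS33, 0.86 for MRPS7, 0.52 for MRPS9, 0.47 for MRPL47, 0.51 for MRPL45, 0.35 for MRPS21 and 0.40 for MRPL20. Without mitochondrially encoded genes in the sum, 6 of the 28 did, to 0.38 for MRPS10, 0.50 for MRPS7, 0.16 for MRPS9, 0.11 for MRPL47, 0.15 for MRPL45 and 0.037 for MRPL20. These changes follow from the scale itself. Depth is unknown, so values near 0 cannot be given an error.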

Other observations

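A pair of pseudogenes named for members, MRPL45P2 and MRPS31P5, stood outside the naming rule. MRPL45P2 had 1.62 FPKM with the IMP1 antibody and 4.84 FPKM with IgG (log2 ratio -1.52), beside -1.35 for MRPL45. MRPS31P5 had a log2 ratio of -3.35, beside -3.11 for MRPS31. How reads were shared between each gene and its copy was not tested.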
